A study of Mus musculus with 15 samples.

Results

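The genes followed here organise lymphoid tissue, and they were measured in the mouse submandibular gland, a major salivary gland. They are the B cell chemokine Cxcl13 with its receptor Cxcr5, the T cell zone chemokines Ccl19 and Ccl21a with their receptor Ccr7, and the lymphotoxins Lta and Ltb with the receptor Ltbr. These 8 genes were taken by name from a table of 55401 genes, of which 32479 had a count in at least 1 library and 18136 passed the filter on low counts. All 8 members passed it.

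The series holds 15 libraries of polyadenylated RNA, 5 in each group. The SJQYD group came from NOD/LTJ mice that received SJQYD, letters that the labels do not explain. The model group came from NOD/LTJ mice with no treatment, and the control group from ICR mice with no treatment. All 3 groups are marked wild type in genotype, and age, sex, dose and duration are not stated in the labels used here. NOD mice develop autoimmune inflammation of the salivary glands and ICR is an outbred stock, so a difference from the control group may belong to strain or to disease, which the design cannot separate. The labels number the samples without saying which mouse each came from, so p-values measure the spread between these samples. SJQYD against model asks what differed with treatment within the strain, and model against control asks what differed between untreated glands of the strains.

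In lymph nodes and spleen, stromal cells of the follicle secrete CXCL13, which draws B cells that carry CXCR5. Stromal cells of the T cell zone make CCL19 and CCL21, which draw T cells and mature dendritic cells through CCR7. Lymphotoxin from lymphocytes engages the lymphotoxin beta receptor on the stroma, which signals through NF-kB and raises these chemokines. The same genes are known from the organised lymphocyte clusters that form in inflamed salivary glands.

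The sequences just upstream of the start sites of Cxcl13, Ccl21a and Ltbr are shown because these genes had 3 different patterns across libraries, described next. Each is 250 bases, written on the gene's own strand from RefSeq on GRCm38.p6, and ends at the base before the RefSeq start. Capitals mark a TATA box (TATAAA) or a kB-type motif (GGG, any 5 bases, CC). Another motif, the interferon response type (GAAA, any 2 bases, GAAA), had no match in these stretches, and all were searched on both strands. Cxcl13 lies on the plus strand (chr5:95956689-95956938), Ccl21a on the minus strand (chr4:42773992-42774241) and Ltbr on the minus strand (chr6:125313886-125314135).
Cxcl13: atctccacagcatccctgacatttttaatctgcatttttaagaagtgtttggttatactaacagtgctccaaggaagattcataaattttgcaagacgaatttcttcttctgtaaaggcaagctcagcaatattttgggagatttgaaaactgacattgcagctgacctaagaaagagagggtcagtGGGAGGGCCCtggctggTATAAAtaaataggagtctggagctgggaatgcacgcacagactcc
Ccl21a: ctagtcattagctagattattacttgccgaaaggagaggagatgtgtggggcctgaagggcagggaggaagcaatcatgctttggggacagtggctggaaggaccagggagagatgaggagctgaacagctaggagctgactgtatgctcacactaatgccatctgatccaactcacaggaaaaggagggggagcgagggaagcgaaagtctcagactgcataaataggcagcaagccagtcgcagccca
Ltbr: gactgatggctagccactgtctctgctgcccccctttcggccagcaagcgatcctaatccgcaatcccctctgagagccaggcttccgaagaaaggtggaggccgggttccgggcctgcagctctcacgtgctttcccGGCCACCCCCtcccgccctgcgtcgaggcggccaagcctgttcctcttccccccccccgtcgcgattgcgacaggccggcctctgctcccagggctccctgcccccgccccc
The Cxcl13 stretch holds a TATA box at bases 46 to 41 before the start and a kB-type motif at bases 63 to 54 that reads as a match on either strand. The Ccl21a stretch holds none of the 3 motifs. The Ltbr stretch holds a kB-type motif at bases 112 to 103, a match only on the strand opposite the one printed. The GC content of the Ltbr stretch is 69.2%, against 52.8% in the Ccl21a stretch and 42% in the Cxcl13 stretch. Among 32851 promoters of the same length, 12.4% hold the TATA box, 45.8% the kB-type motif and 2.98% the interferon response type. A match describes letters only. RefSeq entries were found for 6 of the 8 genes. Of those not printed, Ccl19 held 2 kB-type matches and 1 interferon response type match, counting each strand. Lta held 2 kB-type matches and 1 TATA box, and Ltb held 5 kB-type matches. Whether motifs go with the patterns across libraries was not tested.

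Each library held between 39510018 and 68694263 counts in total. Values are given as CPM, counts scaled to a library size adjusted by TMM factors of 0.594 to 1.85. A floor of 3 counts per library was worth 0.029 to 0.084 CPM. The labelled tissue matched its defining transcript, as Mucl2, a secretory product of the submandibular gland, held 15.5% to 53.8% of counts. Transcripts of 4 genes of the adjoining parotid gland held 4.17% to 16.0% of counts in SJQYD 1, model 3 and control 2 and at most 2.11% in the other libraries. Xist was at 1.01 CPM in SJQYD 3 and at 162 to 270.2 CPM in the other 14 libraries, so SJQYD 3 stands apart, and the members' fold changes and summaries that it moves are also given without it.

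Cxcl13 (ENSMUSG00000023078, interval as the authors deposited it, chr5:95956951-95961068, plus strand) was the chemokine with the clearest separation of the model libraries. It measured 0.959, 6.48, 3.35, 2.34 and 2.22 CPM in SJQYD 1 to 5, against 8.61, 7.18, 9.84, 12.5 and 5.26 CPM in model 1 to 5. Control 1 to 5 gave 1.88, 3.94, 0, 1.61 and 1.11 CPM. Every model library lay above every control library, and SJQYD 2 lay inside the model range while the other 4 SJQYD libraries lay below it. Model glands averaged 8.69 ± 2.74 CPM and control glands 1.71 ± 1.44 CPM (SD, n = 5 each), a log2 fold change of 2.34 ± 0.742 (SE, 95% interval 0.737 to 3.93). That difference did not pass the test over all genes (edgeR adjusted p = 0.0869, unadjusted p = 0.0075). SJQYD glands averaged 3.07 ± 2.09 CPM (SD, n = 5), a log2 fold change of -1.51 ± 0.717 (SE) against model glands, which did not pass either (edgeR adjusted p = 0.324, unadjusted p = 0.055). Across the other analyses tried, the adjusted p for model against control ran from 0.00318 to 0.379, and 7 of 30 called the gene higher. It was called with DESeq2 (adjusted p = 0.0367), with limma voom (adjusted p = 0.04), with 3 limma fits on FPKM, and without control 2 (adjusted p = 0.0338) or without control 3 (adjusted p = 0.0469). Against model, no analysis called Cxcl13 in SJQYD glands, with log2 fold changes from -1.97 to -1.22. The count of 0 in control 3 sits below a floor of 0.0739 CPM.

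Cxcr5 (ENSMUSG00000047880, chr9:44511787-44561877, minus strand), carried by B cells and follicular helper T cells, was among the lowest members. It measured 0.562, 2.64, 3.07, 0.302 and 1.61 CPM in SJQYD 1 to 5, against 4.30, 1.33, 2.45, 0.955 and 3.79 CPM in model 1 to 5. The values were 0.392, 3.01, 0, 0.169 and 0.165 CPM in control 1 to 5. Control 2 was as high as the higher NOD libraries and the other 4 controls were below every model library, so the groups overlapped through control 2. Cxcr5 had a log2 fold change of -0.65 ± 0.968 for SJQYD against model (SE, edgeR adjusted p = 0.813) and 1.76 ± 1 for model against control (SE, edgeR adjusted p = 0.329). Without control 2 model against control gave 3.82 (edgeR adjusted p = 0.0157), and SJQYD against control gave 3.18 (edgeR adjusted p = 0.0248). Control 2 was singled out for its high values of several members, so p-values of fits without it depend on that choice. Without SJQYD 3 SJQYD against model gave -1.01 (edgeR adjusted p = 0.73).

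**Figure D1:**
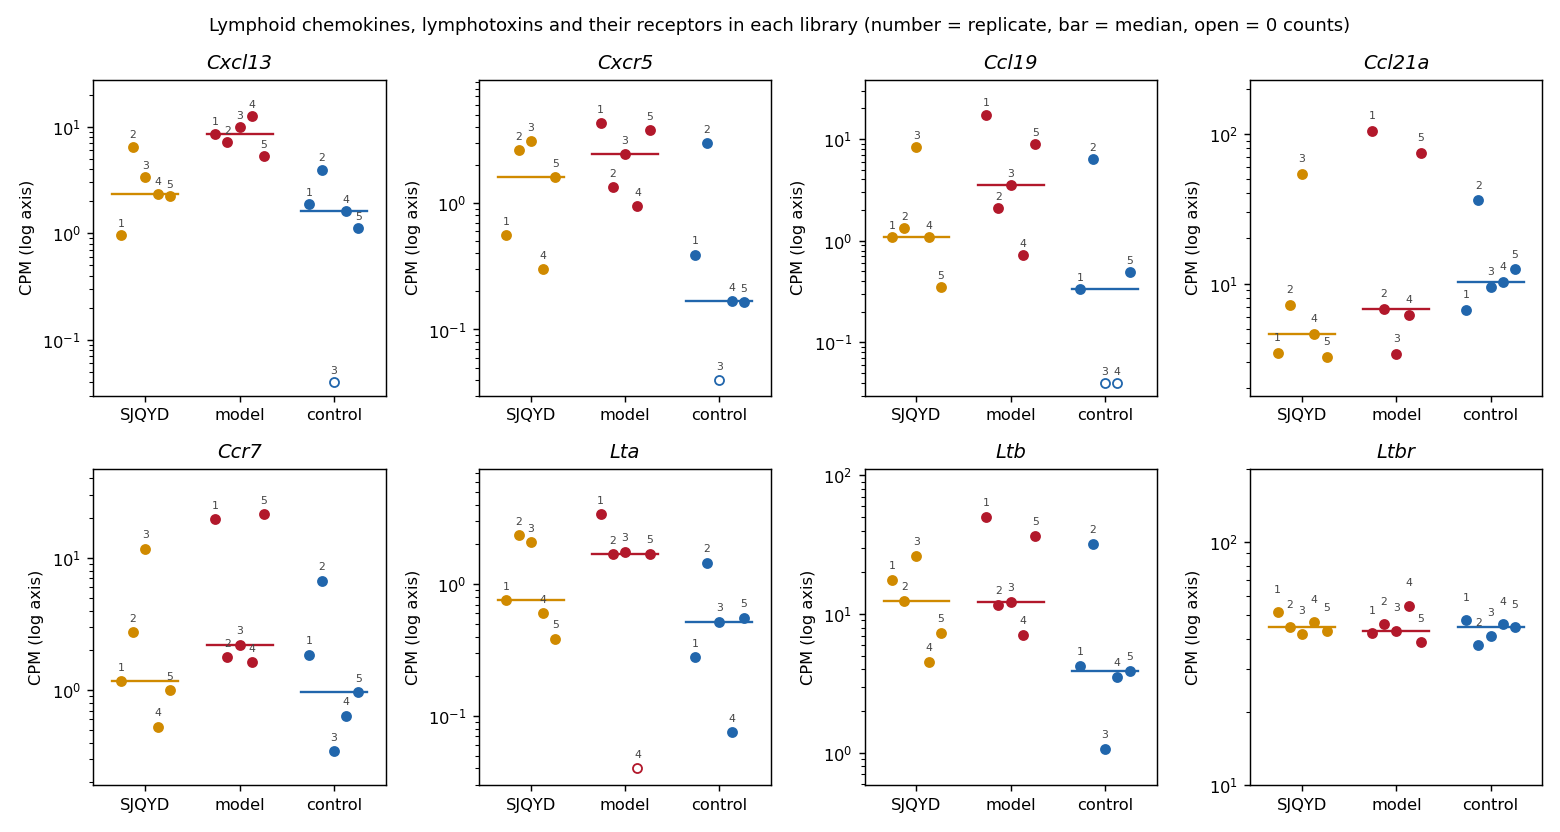
Normalised read counts (CPM, log axis) of the 8 genes, 1 point per library, with SJQYD, model and control from left to right. Numbers give the replicate, bars the group median, and open points libraries with 0 counts, drawn at the foot of the axis. Cxcl13 in the 5 model libraries sits between 5.26 and 12.5 CPM, all above the control libraries, while Ccl21a, Ccl19, Ccr7, Ltb and Cxcr5 peak in SJQYD 3, model 1, model 5 and control 2.

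Ccl21a (ENSMUSG00000094686, chr4:42772860-42773993, minus strand), which lymphatic vessels and the T cell zone stroma secrete, had another pattern. It measured 3.42, 7.15, 53.8, 4.62 and 3.21 CPM in SJQYD 1 to 5, against 104.5, 6.75, 3.40, 6.15 and 74.6 CPM in model 1 to 5. Control 1 to 5 gave 6.66, 35.9, 9.51, 10.2 and 12.4 CPM. Each group held 1 or 2 libraries at 35.9 CPM or more, and all others lay between 3.21 and 12.4 CPM, so the 3 groups overlapped widely. Ccl21a had a log2 fold change of -1.44 ± 1.11 for SJQYD against model (SE, edgeR adjusted p = 0.589) and 1.38 ± 1.11 for model against control (SE, edgeR adjusted p = 0.51). Without SJQYD 3 the first became -3.09 (edgeR adjusted p = 0.176), and without control 2 the second became 1.99 (edgeR adjusted p = 0.347).

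Ccl19 (ENSMUSG00000071005, chr4:42754525-42756577, minus strand), the other ligand of CCR7 and a product of dendritic and stromal cells, peaked in the same libraries. It measured 1.09, 1.34, 8.29, 1.08 and 0.349 CPM in SJQYD 1 to 5, against 17.4, 2.12, 3.54, 0.724 and 8.91 CPM in model 1 to 5. The values were 0.336, 6.32, 0, 0 and 0.494 CPM in control 1 to 5. Control 3 and control 4 had no count, which lies below floors of 0.0739 and 0.0563 CPM, and control 2 was above 3 of 5 model libraries. Ccl19 had a log2 fold change of -1.43 ± 1.34 for SJQYD against model (SE, edgeR adjusted p = 0.675) and 2.17 ± 1.38 for model against control (SE, edgeR adjusted p = 0.391). The first became -2.76 without SJQYD 3 (edgeR adjusted p = 0.403), and the second became 4.97 without control 2 (edgeR adjusted p = 0.0487).

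Ccr7 (ENSMUSG00000037944, chr11:99144196-99155077, minus strand) marks naive and central memory T cells and migrating dendritic cells. It measured 1.17, 2.73, 11.8, 0.529 and 0.996 CPM in SJQYD 1 to 5, against 19.7, 1.78, 2.2, 1.62 and 21.4 CPM in model 1 to 5. In control 1 to 5 it measured 1.85, 6.73, 0.345, 0.638 and 0.967 CPM. SJQYD 3, model 1, model 5 and control 2 lay between 6.73 and 21.4 CPM, and the other 11 libraries lay between 0.345 and 2.73 CPM. Ccr7 had a log2 fold change of -1.44 ± 1.1 for SJQYD against model (SE, edgeR adjusted p = 0.587) and 2.14 ± 1.13 for model against control (SE, edgeR adjusted p = 0.297). Without SJQYD 3 the first became -2.79 (edgeR adjusted p = 0.248), and without control 2 the second became 3.3 (edgeR adjusted p = 0.112).

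Ltb (ENSMUSG00000024399, chr17:35194439-35196305, plus strand) encodes lymphotoxin beta, which anchors lymphotoxin alpha at the surface of lymphocytes. It measured 17.6, 12.4, 26.4, 4.51 and 7.27 CPM in SJQYD 1 to 5, against 50.4, 11.6, 12.2, 7.10 and 36.6 CPM in model 1 to 5. In control 1 to 5 it measured 4.20, 32.2, 1.06, 3.51 and 3.87 CPM. Control 2 lay between the 2 highest model libraries and the other 3, and the remaining controls lay below all of them. The log2 fold change was -0.79 ± 0.861 for SJQYD against model (SE, edgeR adjusted p = 0.73) and 1.39 ± 0.874 for model against control (SE, edgeR adjusted p = 0.386). Without control 2 the second became 2.89 (edgeR adjusted p = 0.0294), and without SJQYD 3 the first became -1.17 (edgeR adjusted p = 0.624).

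Lta (ENSMUSG00000024402, chr17:35203165-35205351, minus strand), the soluble lymphotoxin, lies near Ltb on the same chromosome, and each of the pair overlaps an annotated microRNA on its own strand. It measured 0.755, 2.34, 2.08, 0.604 and 0.384 CPM in SJQYD 1 to 5, against 3.39, 1.68, 1.76, 0 and 1.70 CPM in model 1 to 5. Control 1 to 5 gave 0.280, 1.46, 0.517, 0.0751 and 0.555 CPM. All model libraries but model 4 lay above every control library, and model 4 had no count, below a floor of 0.0462 CPM. Lta had a log2 fold change of -0.47 ± 0.901 for SJQYD against model (SE, edgeR adjusted p = 0.861) and 1.55 ± 0.931 for model against control (SE, edgeR adjusted p = 0.354). The second became 2.24 without control 2 (edgeR adjusted p = 0.18).

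Ltbr (ENSMUSG00000030339, chr6:125306571-125313885, minus strand), the receptor that stromal and epithelial cells carry, was the steadiest member. It measured 51.5, 44.6, 42.0, 46.7 and 43.2 CPM in SJQYD 1 to 5, against 42.2, 46.0, 43.2, 54.8 and 39.0 CPM in model 1 to 5. The values were 47.9, 37.6, 41.2, 45.9 and 44.6 CPM in control 1 to 5. All 15 libraries lay within 37.6 to 54.8 CPM and the groups overlapped. The log2 fold change was 0.02 (95% interval -0.206 to 0.241) for SJQYD against model, 0.05 (-0.171 to 0.276) for model against control and 0.07 (-0.153 to 0.293) for SJQYD against control, with edgeR adjusted p values of 0.967, 0.821 and 0.731. Model against control gave -0.004 without control 2 (edgeR adjusted p = 0.988). The values of Ltbr depend on the scaling. With total counts and no TMM factors the gene measured 0.55 for model against control and 0.71 for SJQYD against control on the log2 scale, and the second was called (edgeR adjusted p = 0.0322). Under that scaling the median of all genes lay at 0.52 and 0.63 in these comparisons, against 0.034 and 0.04 with TMM factors.

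Per length, in FPKM, the order of the members differed between libraries. The median over 15 libraries was 15.2 FPKM for Ltbr, 7.5 FPKM for Ccl21a, 7.405 FPKM for Ltb, 2.88 FPKM for Cxcl13, 1.5 FPKM for Ccl19, 0.872 FPKM for Ccr7, 0.848 FPKM for Lta and 0.378 FPKM for Cxcr5. Ranges of neighbours in that order overlapped, with Ccl21a between 2.91 and 136 FPKM and Ltbr between 10.5 and 34.3 FPKM. Ccl21a was the highest member in SJQYD 3, model 1, model 5 and control 2, and Ltbr in the other 11 libraries.

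In SJQYD against model 0 of 8 members were called by edgeR, beside 2.75% of all 18136 genes. In model against control the count was 0 of 8 (background 5.07%), in SJQYD against control 0 of 8 (background 11.1%) and in all 10 NOD libraries against control 0 of 8 (background 10.1%). At an unadjusted p under 0.05, 0 of 8 were lower in SJQYD against model (background 8.1%), and in SJQYD against control 0 of 8 were higher (background 13.4%). Cxcl13 was higher at that level in model against control (1 of 8, background 11.6%) and in NOD against control (1 of 8, background 13%). DESeq2 and limma voom each called 1 member in model against control, Cxcl13, and 0 in the other 3 comparisons. Cxcl13 was also the only member whose model and control libraries did not overlap (1 of 8, background 3.05%), and 0 of 8 were separate and lower in SJQYD against model (background 2.29%).

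In direction, 7 of 8 members were lower in SJQYD than in model glands, with a median log2 fold change of -1.11, beside -0.03 over all genes, of which 46.8% were higher. All 8 were higher in model than in control glands, with a median of 1.65, beside 0.03 over all genes, of which 53.3% were higher. Both comparisons use the same model libraries. Because 5 of the members had their highest values in the same 4 libraries, the 8 directions are not separate observations. In SJQYD against model the direction of Lta turned with limma voom (0.03), and that of Ltbr, which lay near 0 in both comparisons, turned when some libraries were left out. SJQYD against control gave 7 of 8 higher and a median of 0.72, with Ccl21a turning to higher without TMM factors (0.36), and NOD against control 8 of 8 higher and a median of 1.37. Of all genes, 53.3% were higher in SJQYD against control and 53.9% in NOD against control. Without SJQYD 3, SJQYD against control gave 5 of 8 higher and a median of 0.16, with Ccl19 and Ccr7 at -0.59 and -0.65 and Ltb at 0.22 on the log2 scale. Without that library NOD against control gave 7 of 8 higher and a median of 0.80, and SJQYD against model 7 of 8 lower and a median of -1.35, with Lta at -0.75. In group means, 6 members ran in the order model, SJQYD, control, while Ccl21a averaged 14.4 ± 22 CPM in SJQYD glands and 14.9 ± 11.9 CPM in control glands (SD, n = 5 each). The SJQYD mean of Ccl21a was 4.60 ± 1.81 CPM without SJQYD 3 (SD, n = 4).

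**Figure D2:**
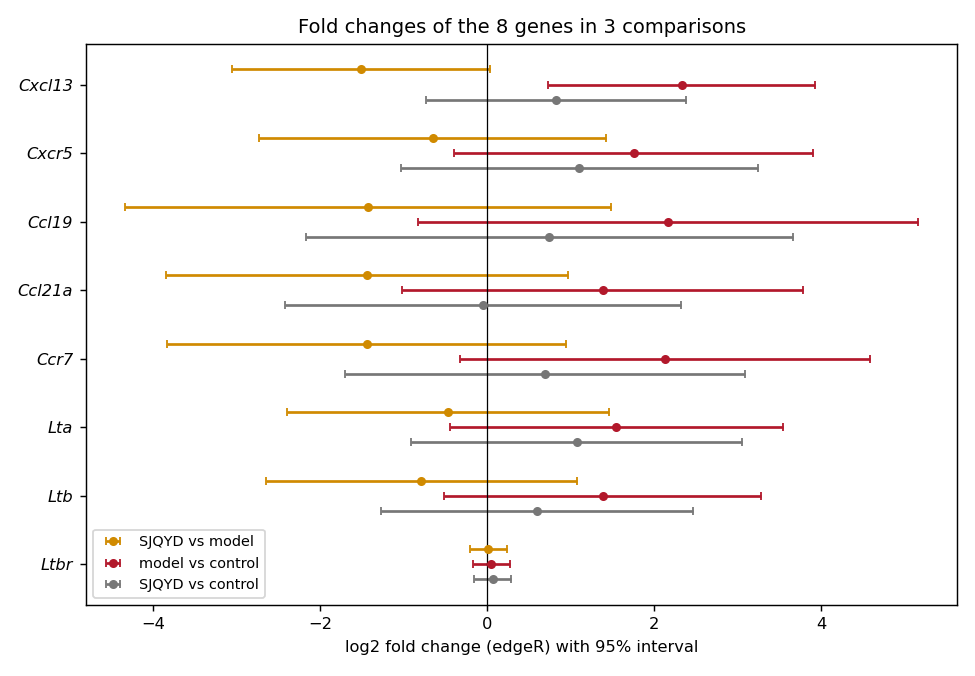
Log2 fold changes (edgeR) of the 8 genes with 95% intervals, for SJQYD against model, model against control and SJQYD against control. The intervals of 7 genes span several log2 units, and of the 24 drawn only that of Cxcl13 in model against control (0.737 to 3.93) leaves out 0, while those of Ltbr stay within -0.206 to 0.293.

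High values came together in 4 libraries. SJQYD 3, model 1, model 5 and control 2 held the 4 highest values of 5 members, namely Ccl21a, Ccl19, Ccr7, Ltb and Cxcr5. The same 4 had the highest summed level of 20 T cell markers, between 183 and 394 CPM, with the other 11 libraries between 10.4 and 82.0 CPM. They were also highest in 12 genes of high endothelial venules and their addressins, between 83.2 and 181.6 CPM, with the others between 18.3 and 53.9 CPM. Glycam1, the sulfated mucin that lymph node venules display to L-selectin, measured 29.1 CPM in SJQYD 3, 69.7 CPM in model 1, 42.8 CPM in model 5 and 15.3 CPM in control 2, and at most 4.12 CPM in the others. The part of lymphocyte content in these values was not tested, and in bulk tissue fewer cells of a type and less RNA per cell cannot be told apart. Whether these transcripts came from the gland itself or from lymph node tissue taken with it was not tested either.

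Cxcl13, Lta and Ltbr did not share that order. Cxcl13 was highest in model 4, model 3, model 1 and model 2, which measured 7.18 to 12.5 CPM. Its libraries followed the B cell markers more than the T cell markers, an order not recomputed without control 3, where Cxcl13 had 0 counts. The 16 B cell markers summed to 30 to 108 CPM in SJQYD glands, 80.7 to 167.5 CPM in model glands and 13 to 142.7 CPM in control glands, and 16 of 16 were higher in model than in control glands, with 0 called by edgeR and 4 at an unadjusted p under 0.05 (background 11.6%). The 20 T cell markers summed to 22.5 to 263 CPM, 48.1 to 394 CPM and 10.4 to 183 CPM in the same 3 groups, and 20 of 20 were higher in model than in control glands, with 0 called and 5 at that level (background 11.6%). Every B and T cell marker was lower in SJQYD than in model glands, with 0 called and 0 at an unadjusted p under 0.05. Their part in the members' differences was not tested.

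**Figure D3:**
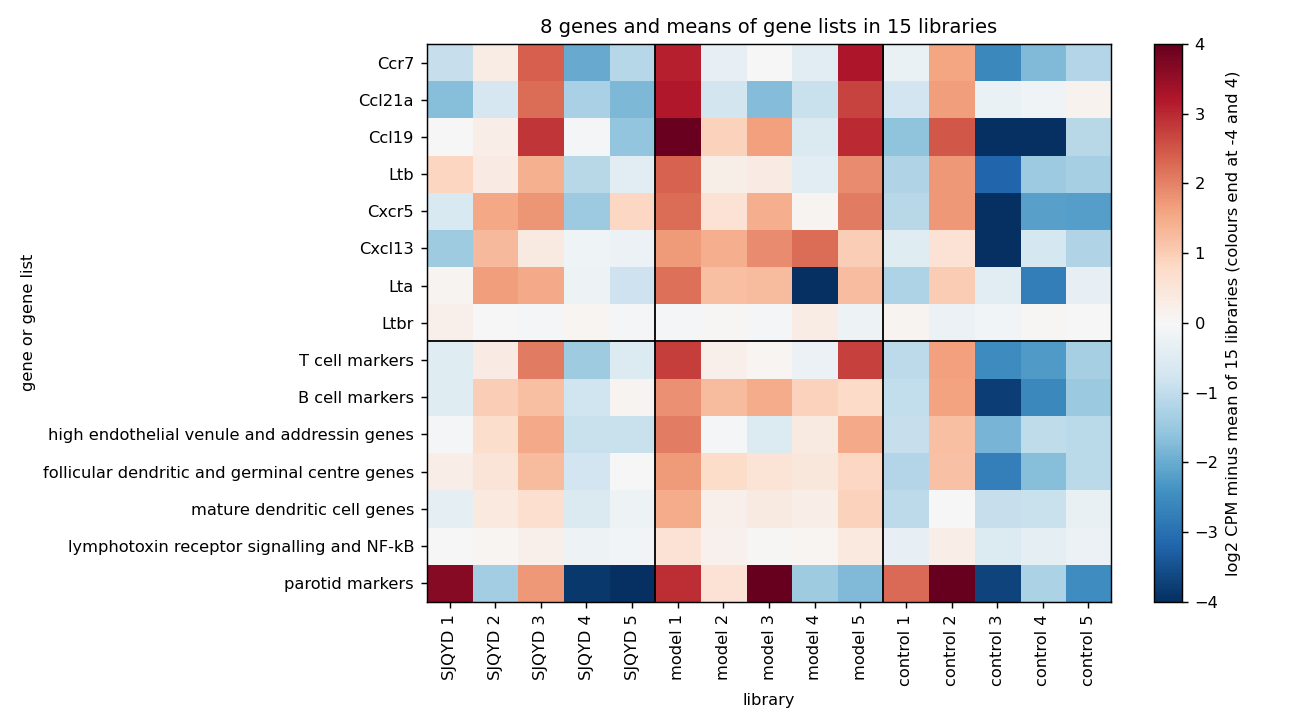
Log2 CPM of the 8 genes and mean log2 CPM of 7 gene lists in each library, as deviations from the mean of 15 libraries (colours end at -4 and 4). SJQYD 3, model 1, model 5 and control 2 stand out in Ccr7, Ccl21a, Ccl19 and Ltb and in the T cell and venule lists, while Cxcl13 is raised across the 5 model libraries.

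Within groups, with each group's mean removed, the log2 CPM of members could be set against each other over the 15 libraries, which share tissue and protocol. Pearson's r was 0.89 between Ccr7 and Ltb, 0.87 between Ccl21a and Ccr7 and 0.84 between Ccl19 and Ccr7. It was 0.73 between Cxcl13 and Cxcr5 but 0.13 between Cxcl13 and Ccl21a. Against the mean of the T cell markers r was 0.98 for Ccr7, 0.86 for Ccl21a and 0.39 for Cxcl13, and against the B cell markers 0.92 for Cxcr5, 0.76 for Cxcl13 and 0.39 for Ccl21a. Control 3 had 0 counts of Cxcl13 and Cxcr5 and counts on 9 of 16 B cell markers. None of these r values was computed without control 3. Ltbr had an r of -0.75 to -0.51 with every member but Cxcl13, where it was 0.032, and of -0.65 with the T cell markers. The r of -0.75 was with Lta, which had 0 counts in model 4, where Ltbr was highest at 54.8 CPM. Ccl19 had 0 counts in control 3 and control 4. The r values of Lta and Ccl19 were not computed without these libraries. Without SJQYD 3 the r was 0.9 between Ccr7 and Ltb, 0.83 between Ccl21a and Ccr7 and 0.82 between Ccl21a and the T cell markers. Parotid markers also moved with some members, with an r of 0.63 for Ltb, 0.58 for Ccl19 and 0.52 for Cxcr5, and sublingual markers had an r of 0.61 with Ltb and 0.56 with Cxcl13. The part of these other glands was not tested here.

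**Figure D4:**
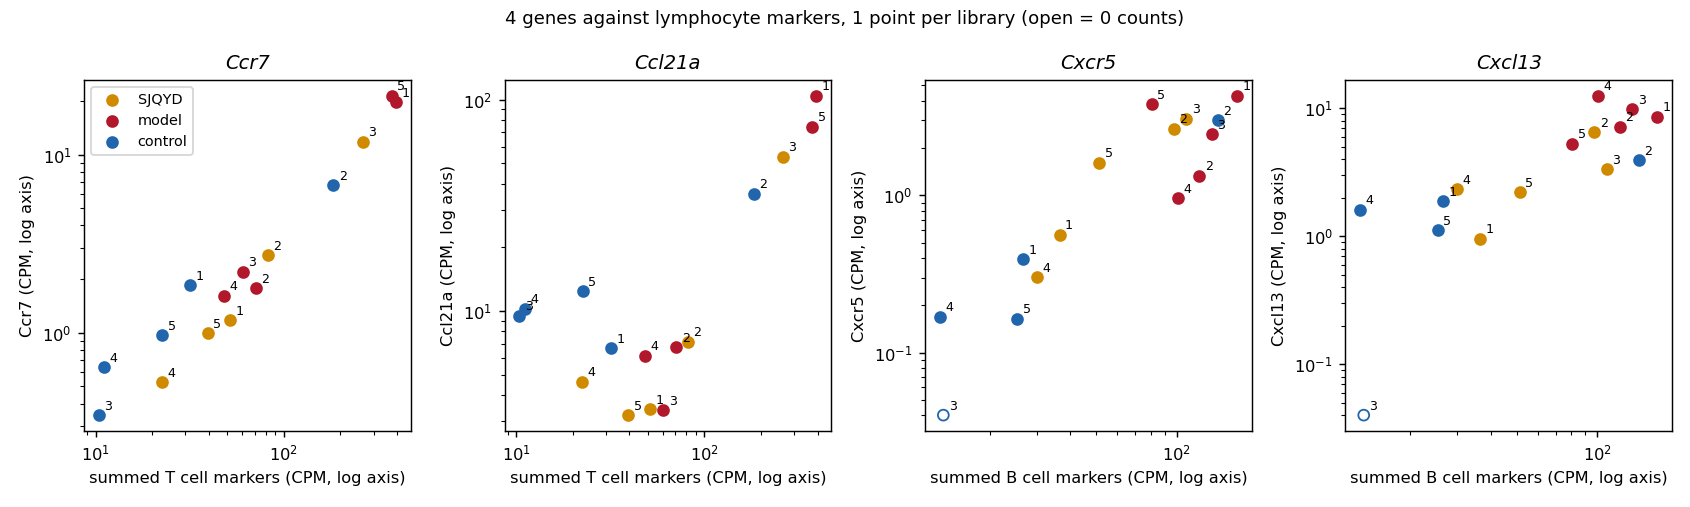
CPM of Ccr7 and Ccl21a against summed T cell markers, and of Cxcr5 and Cxcl13 against summed B cell markers (CPM, log axes, 1 point per library, open points 0 counts). Ccr7 follows the T cell markers over their whole range, whereas Ccl21a lies between 3.21 and 12.4 CPM in the 11 libraries at or below 82.0 CPM of T cell markers and at 35.9 CPM or more in the 4 libraries at or above 183 CPM.

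Set against both marker lists, 5 of 8 members (Ccl21a, Ccr7, Lta, Ltb and Ltbr) averaged highest in control glands, an order that was not tested. The marker mean itself was lowest in control 3 and control 4 (-2.02 and -1.3 log2 CPM). A gene of level CPM, such as Ltbr, therefore scores highest there, and the share of all genes with that order was not computed. Ltb and Lta averaged 2.36 and -1.03 in control glands, close to 2.29 and -1.2 in SJQYD glands. For Ccl21a the log2 CPM minus the mean of the B and T cell markers was 1.64 ± 0.923 in SJQYD glands, 1.73 ± 1.54 in model glands and 3.79 ± 1.24 in control glands (SD, n = 5 each). The ranges were 0.80 to 2.98, -0.107 to 3.37 and 2.43 to 5.28, which overlap. Ltbr averaged 4.29 ± 1.15 in SJQYD glands, 3.19 ± 0.959 in model glands and 5.59 ± 1.9 in control glands. Cxcl13 on the same scale was 0.155 ± 0.967 in SJQYD glands, 0.771 ± 1.13 in model glands and -0.0569 ± 1.86 in control glands, with ranges of -1.01 to 1.24, -0.451 to 2.19 and -2.87 to 2.02 in the same 3 groups, the last including control 3 at 0 counts. Leaving out Ccl21b, 7 lymphatic endothelium markers summed to 6.34 to 7.72 CPM in SJQYD glands, 7.23 to 9.83 CPM in model glands and 7.33 to 12.5 CPM in control glands.

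By the same measure of likeness, the genes nearest to each member over 15 libraries were of different kinds. For Cxcl13 they were Ptger2, a prostaglandin receptor, at 0.944, Iglc2, an immunoglobulin light chain, at 0.935, and Cd79a, part of the B cell receptor, at 0.929. Cxcl13 and each of these genes had 0 counts in control 3, and r without that library was not computed. For Ccr7 they were Tcf7, a T cell transcription factor, at 0.988, Glycam1 at 0.987 and Cd3d, part of the T cell receptor complex, at 0.979. Cxcr5 was nearest to Snx20 (0.969), Gimap4 (0.952) and Gimap3 (0.949). Genes near Ltb were Treml2 (0.97) and St6gal1 (0.967). Ccl19 was nearest to Egr3 (0.937), Ptk2b (0.931) and Traf3ip3 (0.93), and Ccl21a to Frmd8 (0.955), Fxyd5 (0.945) and Emb (0.938). Lta was nearest to Nasp (0.931), Cyth4 (0.917) and Cenph (0.902). Counts of 0 were present for Lta in model 4, for Cxcr5 in control 3 and for Ccl19 in control 3 and control 4. Their r values without these libraries were not computed. Ltbr was nearest to Stt3a, part of the enzyme that adds N-glycans in the endoplasmic reticulum, at 0.919, then Cltb (0.906) and Fam83h (0.893). Genes at an r over 0.9 numbered 107 for Ccr7, 60 for Ltb, 26 for Ccl21a and 5 for Cxcl13.

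Both CCR7 ligands have near-identical copies in the mouse genome, so their counts are uncertain. The Ccl21a transcript differs from that of Ccl21b at 2 of 402 aligned bases and from that of Ccl21d at 6 of 870. Of the counts on these 3 genes, Ccl21a received 82% to 97.1% per library (median 88.6%). Ccl19 equals Ccl19-ps3 at all 324 aligned bases and differs from Ccl19-ps1 at 4 of 327, and it received 0% to 77.7% of their joint counts (median 44.2%). Control 3 and control 4, with no count on Ccl19, each had 13 counts on Ccl19-ps3. With copies summed, an alternative chosen after seeing the data, the log2 fold change was -1.10 ± 1.02 for Ccl19 in SJQYD against model (SE, edgeR adjusted p = 0.67) and 2.07 ± 1.06 in model against control (SE, edgeR adjusted p = 0.278). For the Ccl21 copies it was -1.42 ± 1.11 (SE, edgeR adjusted p = 0.594) and 1.39 ± 1.11 (SE, edgeR adjusted p = 0.508), so no call changed.

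Downstream of the receptor, 17 genes of lymphotoxin receptor signalling and NF-kB were all tested. In SJQYD against model 1 was called higher (background 1.91%) and 3 were called lower (background 0.838%), with 12 of 17 lower and a median log2 fold change of -0.28, beside -0.03 over all genes. In model against control 3 were called higher (background 2.57%) and 0 lower, with 13 of 17 higher and a median of 0.52, beside 0.03 over all genes. Nfkb2, the precursor cleaved in the non-canonical pathway that LTBR engages, measured 13.9, 13.7, 15.6, 12.8 and 17.8 CPM in SJQYD 1 to 5, against 23.5, 28.6, 18.4, 22.9 and 19 CPM in model 1 to 5. Control 1 to 5 gave 13.1, 16.0, 11.3, 10.5 and 12.9 CPM. The model libraries were above all others. Nfkb2 fell in SJQYD against model (log2 fold change -0.61 ± 0.142 SE, edgeR adjusted p = 0.0287) and rose in model against control (0.82 ± 0.143 SE, edgeR adjusted p = 0.00492).

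Relb, the DNA-binding partner of the Nfkb2 product, measured 4.01, 5.79, 4.75, 3.00 and 4.59 CPM in SJQYD 1 to 5, against 10.6, 7.49, 5.78, 9.04 and 7.26 CPM in model 1 to 5. SJQYD 2 and model 3 were at about the same level and the other libraries of the 2 groups were separate. Control 1 to 5 gave 5.88, 8.07, 5.22, 3.605 and 4.38 CPM, overlapping both. Relb fell in SJQYD against model (log2 fold change -0.86 ± 0.224 SE, edgeR adjusted p = 0.0493). Birc3, an inhibitor of apoptosis bound to TRAF proteins, averaged 5.22 ± 0.921 CPM in SJQYD glands, 8.51 ± 0.803 CPM in model glands and 5.34 ± 1.41 CPM in control glands (SD, n = 5 each). It fell in SJQYD against model (log2 fold change -0.71, edgeR adjusted p = 0.0395) and rose in model against control (0.67, edgeR adjusted p = 0.0378). Chuk, the kinase that phosphorylates the Nfkb2 product, rose to 25.5 ± 3.26 CPM in SJQYD glands, against 18.4 ± 1.51 CPM in model glands (SD, n = 5 each, log2 fold change 0.47, edgeR adjusted p = 0.0222). Traf2, an adaptor of the receptor, averaged 19.1 ± 4.53 CPM in model glands and 12.6 ± 0.787 CPM in control glands (log2 fold change 0.60, edgeR adjusted p = 0.034). Across all 30 alternatives no direction turned, and the highest adjusted p in SJQYD against model was 0.624 for Nfkb2, 0.524 for Relb, 0.59 for Birc3 and 0.512 for Chuk, in fits on FPKM or without TMM factors. In model against control the calls of Nfkb2, Traf2 and Birc3 were lost with covariates for parotid, sublingual and adipocyte content (adjusted p = 0.137, 0.363 and 0.38 in edgeR). Each of 15 fits left out 1 library. In SJQYD against model the call was lost for Chuk without model 1, model 2 or SJQYD 4 (adjusted p up to 0.0681), for Nfkb2 without model 1, model 2 or SJQYD 1 to 4 (up to 0.0824), for Birc3 in 10 fits (up to 0.11), with 5 keeping it, those without control 1, 2, 3 or 5 or SJQYD 2, and for Relb in 11 (up to 0.126), with 4 keeping it, those without control 2, control 4, model 3 or SJQYD 2. In model against control Nfkb2 was called in 15 of 15, while Traf2 was lost in 8 (without control 1, 3, 4 or 5 or model 1, 2, 3 or 5, up to 0.0962) and Birc3 in 7 (without control 1, 3 or 4 or model 1, 2, 4 or 5, up to 0.093).

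**Figure D5:**
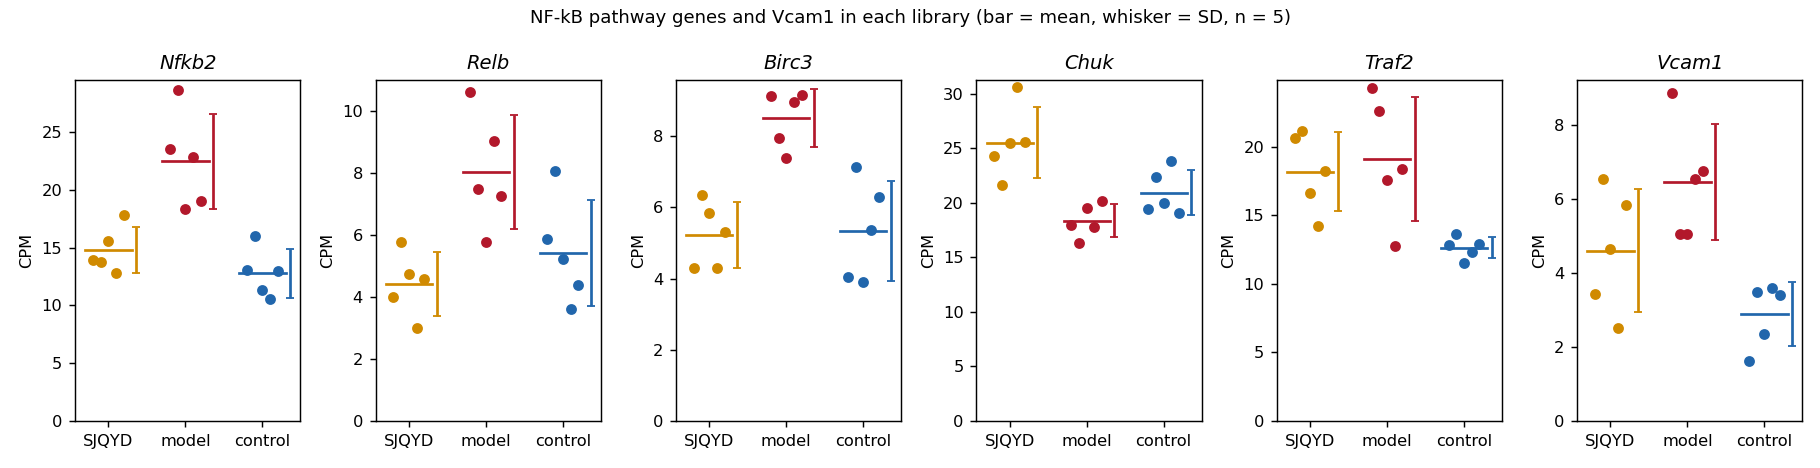
CPM of Nfkb2, Relb, Birc3, Chuk and Traf2, 5 genes of the NF-kB pathway, and of the adhesion molecule Vcam1, 1 point per library (bar mean, whisker SD, n = 5, axes from 0), with SJQYD, model and control from left to right. Nfkb2 sits between 18.4 and 28.6 CPM in the model libraries, above all other libraries, and Chuk averages highest in SJQYD glands.

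Among 11 tested genes of venules and addressins 2 were called higher in model against control (background 2.57%) and 0 were called in SJQYD against model. The 2 were Icam1 and Vcam1, the endothelial ligands that arrest lymphocytes. Icam1 averaged 7.76 ± 1.96 CPM in SJQYD glands, 13.3 ± 2.54 CPM in model glands and 6.23 ± 2.02 CPM in control glands (SD, n = 5 each, model against control log2 fold change 1.09, edgeR adjusted p = 0.0111). Vcam1 averaged 4.59 ± 1.66, 6.45 ± 1.57 and 2.89 ± 0.870 CPM in the same groups (1.15, edgeR adjusted p = 0.0238). Icam1 was called in all 15 fits that left out 1 library, and Vcam1 in 12 of them, all but those without model 1, control 1 or control 3 (adjusted p up to 0.061). Of 12 mature dendritic cell genes 2 were called higher in model against control (background 2.57%). They were Cd86, a costimulatory ligand, and Ccl5, a chemokine of effector T cells (log2 fold change 1.22 and 2.09, edgeR adjusted p = 0.00441 and 0.0269). Cd86 fell in SJQYD against model (-0.83, edgeR adjusted p = 0.0398), 1 of 12 called lower there (background 0.838%). That call was lost in 8 of 15 fits that left out 1 library (without SJQYD 1, 3, 4 or 5 or model 1, 2, 3 or 5, adjusted p up to 0.107). With the covariates for other tissues the adjusted p in model against control was 0.251 for Icam1, 0.254 for Vcam1, 0.288 for Ccl5, 0.308 for Cxcl16 and 0.0758 for Cd86 in edgeR. Across all 30 alternatives the call of Cd86 in SJQYD against model was lost in 17, with an adjusted p of up to 0.464 without TMM factors. The call of Ccl5 was lost without control 1, 3, 4 or 5 or model 1 or 5 (adjusted p up to 0.072).

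Of 18 tested genes in other homeostatic chemokine axes 1 was called higher in model against control (background 2.57%), and 0 were called in SJQYD against model. The called gene was Cxcl16, a membrane-bound chemokine (log2 fold change 0.73, edgeR adjusted p = 0.0278, up to 0.0796 without control 1, 3 or 4 or model 1 or 2). Among 12 relatives of the lymphotoxins in the TNF family edgeR called 0 in either comparison, with 3 higher (background 11.6%) and 1 lower at an unadjusted p under 0.05 in model against control and 1 lower in SJQYD against model (background 8.1%). The smallest p values there belonged to the bone and lymph node cytokine Tnfsf11 (model against control log2 fold change 2.36, edgeR adjusted p = 0.151), its receptor Tnfrsf11a (0.42, edgeR adjusted p = 0.189) and its decoy receptor Tnfrsf11b (-1.25, edgeR adjusted p = 0.18). Among 13 follicular dendritic and germinal centre genes 11 were higher in model than in control glands and 0 were called (3 higher and 1 lower at an unadjusted p under 0.05), with Sh2d1a at 2.63 (edgeR adjusted p = 0.0863), Pdcd1 at 2.70 (adjusted p = 0.0968) and Pou2af1 at 2.11 (adjusted p = 0.11). Of 7 lymphoid tissue inducer genes edgeR called 0 in SJQYD against model and 0 in model against control, with 0 and 2 at an unadjusted p under 0.05. Tox, a nuclear factor of T and innate lymphoid cells, measured 1.59 and Id2, an inhibitor of E proteins, -0.36 in model against control on the log2 scale (edgeR adjusted p = 0.15 and 0.253).

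Markers of other cells moved with the groups to differing extents. Adipocyte markers were higher in model than in control glands for 9 of 9 genes with 0 called and 4 at an unadjusted p under 0.05 (background 11.6%). Their sum peaked in single libraries, at 497.9 CPM in SJQYD 5, 745.8 CPM in model 2 and 101 CPM in control 5. Its median was 74.8 CPM in SJQYD glands, 88.9 CPM in model glands and 72.8 CPM in control glands. Skeletal muscle markers had 3 of 8 called higher in model against control, Tnnt3, Ryr1 and Eno3, named after their values were seen (background 2.57%). Of 10 submandibular gland markers 9 were lower in model than in control glands with 1 called, Bhlha15 (background 2.5%, also named after its value was seen), and fibroblast and pericyte markers had 4 of 8 higher and 0 called, with 1 lower at an unadjusted p under 0.05. In SJQYD against model the fibroblast and pericyte markers had 6 of 8 lower, with 0 called and 5 lower at an unadjusted p under 0.05 (background 8.1%). In SJQYD against control 6 of 8 were lower, with Lum called (1 of 8, background 11.1% in either direction) and named after its value was seen. Their summed level was 88.6 to 188.6 CPM in SJQYD glands, 155 to 248.4 CPM in model glands and 165.5 to 237.7 CPM in control glands. Their part in the members' differences between SJQYD and the other groups was not tested. Lymphatic endothelium markers had 3 of 8 higher in model than in control glands, with 0 called and 0 at an unadjusted p under 0.05. Parotid markers were higher in model than in control glands for 8 of 8 genes and sublingual markers for 3 of 4, with 0 called and 0 at an unadjusted p under 0.05 in both lists. The summed parotid level reached 133000 CPM in model 3, while its median was 1973 CPM in model glands and 3950 CPM in control glands. Without SJQYD 1, model 3 and control 2, the 3 libraries richest in parotid transcripts, Cxcr5 measured 3.83 (edgeR adjusted p = 0.0254) and Ltb 3.05 (edgeR adjusted p = 0.0461) in model against control on the log2 scale. The part of these other tissues in the members' differences was not tested beyond that.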

How the data were processed

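RNA was extracted with Trizol, selected on oligo-dT beads and made into stranded libraries with molecular identifiers in the adapters, per the labels' protocols. The submitters' processing notes list edgeR, DESeq2, StringTie 1.3.4d, UMI-tools, HISAT2 2.0.4 and cutadapt 1.9, with no roles given. The authors deposited whole-number gene counts and, in a second table, FPKM values, which divide by length and depth. The notes name build mm9, but the deposited coordinates equal GENCODE gene models on GRCm38 for 87.5% of 32385 genes. The intervals printed for the 8 members are the deposited ones, and 7 of the 8 equal those gene models. Small counts pile up at 4 (14040 values, against 8483 at 3), a pattern of unknown origin, so floors cover counting error only. Libraries of a group differed by more than sampling noise (chi-square per gene of at least 74), so none was counted as a duplicate.

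Counts were tested with edgeR 4.0.16 in R 4.3.3 (default low-count filter by group, TMM, robust quasi-likelihood fit, 1 mean per group over 15 libraries, Benjamini-Hochberg adjustment over 18136 genes, called under 0.05). Alternatives used DESeq2 1.42.0, limma 3.58.1 and other scalings, filters and subsets. The fit was tested on simulated data. The 8 genes and 16 gene lists were chosen with earlier results of these data known. The rule named all members, for each list other than cell type markers its called genes or up to 3 of smallest p, and for each member the 3 nearest named genes. Results on 2 genes that the rule picks are not reported here.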

Additional observations from a re-analysis of the deposited data

Results flagged for a closer look

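In 3 cases a value stood apart on the log2 CPM scale from the other 4 libraries of its group, by Dixon's test at the 95% level. The test was applied to 24 sets of 5 libraries and flags about 1 in 20 by chance. A prior count of 2 was added before taking logs, which put counts of 0 at -4.896. The flags at 0 CPM therefore depend on that prior. Cxcl13 was at 0 CPM in control 3, with the other controls between 1.11 and 3.94 CPM. Ccl21a was at 53.8 CPM in SJQYD 3, with the other SJQYD libraries between 3.21 and 7.15 CPM, and SJQYD 3 is the library with 1.01 CPM of Xist. Lta was at 0 CPM in model 4, with the other model libraries between 1.68 and 3.39 CPM.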

How the results depend on the processing

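For SJQYD against model, 0 members were called under every alternative run. For model against control, 0 was the main count, 1 member was called with DESeq2, with limma voom, with limma on log2(FPKM + 1) and without its filter (Cxcl13 each time), 2 with log2(FPKM + 0.1) (Cxcl13 and Cxcr5), 2 without the 3 parotid-rich libraries, and 0 to 4 when single libraries were left out, 4 of them without control 2. For SJQYD against control, 1 was called without TMM factors, with log2(FPKM + 1) and with log2(FPKM + 0.1) (Ltbr each time), 1 without the 3 parotid-rich libraries, and 0 to 1 with single libraries left out. For NOD against control, 1 was called without factors, 2 with log2(FPKM + 1), 3 with log2(FPKM + 0.1), 1 without the FPKM filter, 1 without the parotid-rich libraries, and 0 to 2 with single libraries left out. The cause was not tested.

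Counts of all genes called moved more. SJQYD against model gave 498 genes, and 43 without factors, 1072 with DESeq2, 68, 57 and 48 in the 3 FPKM fits, 186 without the parotid-rich libraries, 160 at an adjusted p under 0.01 and 333 to 527 with single libraries left out. Model against control gave 920, and 1565 without factors, 1789 with DESeq2, 1422 with voom, 466 in a fit of those groups alone, 1447, 1958 and 555 in the FPKM fits, 81 with parotid, sublingual and adipocyte covariates, 1507 without the parotid-rich libraries, 186 at 0.01 and 354 to 1799 with single libraries left out. SJQYD against control gave 2017, and 4679 without factors, 3626 and 4046 in the filtered FPKM fits, 312 with covariates, 664 at 0.01 and 1240 to 2626 with single libraries left out. NOD against control gave 1829, and 4909 without factors, 2773 with DESeq2, 4328 and 4896 in the filtered FPKM fits, 166 with covariates, 541 at 0.01 and 983 to 2657 with single libraries left out. The share of higher calls also moved with scaling. It was 50.7% in model against control and 97.2% to 97.8% without factors or in the filtered FPKM fits, 47% and 97.6% to 97.9% in SJQYD against control, and 42.7% and 97.8% to 98.2% in NOD against control. In these fits the median of all genes lay at 0.28 to 0.63 on the log2 scale, against 0.034 to 0.04 with TMM.

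Some members' directions turned. Ltbr turned in SJQYD against model (-0.00076 with covariates, -0.0425 without the parotid-rich libraries, -0.0308 to 0.0979 with single libraries left out), in model against control (-0.0283 to 0.1 with single libraries left out), in SJQYD against control (-0.0334) and in NOD against control (-0.0122, both without the parotid-rich libraries). Lta turned in SJQYD against model with voom (0.0274). Ccl21a in SJQYD against control was 0.358 without factors, 0.83 without the parotid-rich libraries and -1.71 to 0.568 with single libraries left out, and in NOD against control -0.162 to 1.28. Without SJQYD 3, Ccl19 and Ccr7 in SJQYD against control were -0.586 and -0.652, with upper values of 3.55 and 1.87 without control 2. Replicate numbers did not pair the libraries (15 same-number pairs, r from -0.23 to 0.16, 3 libraries closest to their own number). With a replicate block 401, 896, 1799 and 1659 genes were called in the 4 comparisons in the order given, and 0 members. Low counts limit Lta, Cxcr5 and Ccl19.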
